A study of Equus caballus with 28 samples.

Results

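The miRNAs miR-23, miR-27 and miR-24 are made together from 2 gene clusters, and their 5 mature forms in the horse, eca-miR-23a, eca-miR-27a, eca-miR-23b, eca-miR-27b and eca-miR-24, were followed across 6 kinds of sample at the embryo–maternal interface. The members were taken by name from the 690 known horse miRNAs, which together with 154 predicted miRNAs made 844 entries in all, and each of the 5 names matched 1 entry. Small RNA was sequenced on day 13 after ovulation from the endometrium and the uterine fluid (UF) of Warmblood mares in pregnant and cyclic cycles, and from the embryos and their yolk sac (YS) fluid. There were 5 libraries each of pregnant endometrium, pregnant UF, embryo and YS fluid, and 4 libraries each of cyclic endometrium and cyclic UF. Each mare served as her own control in a switch-back design, so that a mare gave samples in a pregnant and in a cyclic cycle, though for mare 5 the cyclic samples were not used here. Ovulation was induced with hCG in the cycles of both kinds. In the pregnant cycle the mare was also inseminated, by the same stallion for all mares, and pregnancy was established before sampling, while cyclic mares had no further treatment. The labels give no age of the mares. Different extraction kits served fluids and tissues, so wherever a fluid is set against a tissue the kit and the kind of sample cannot be told apart.

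A microRNA cluster is transcribed as a single precursor RNA from which several hairpins are cut, each giving a mature miRNA of about the same length. In the RefSeq gene table of the horse (assembly TB-T2T), 6 hairpin genes in 2 clusters carried the 5 members. MIR23A, MIR27A and MIR24-1 neighbour each other and form the a cluster, and MIR23B, MIR27B and MIR24-2 form the b cluster. The mature miR-24 comes from both. The a and b forms of miR-23 share a seed, the stretch of a miRNA that pairs with its target mRNAs, and so do those of miR-27, and outside the seed they are nearly identical. How reads that match both forms were assigned is not given in the sources used here, so the division of reads between an a and a b form is uncertain. In mammals, miR-23 is known to repress glutaminase, miR-27 to repress the adipocyte regulator PPARG, and miR-24 to repress cell cycle genes, and miR-23 and miR-27 of endothelial cells are known to promote the growth of blood vessels.

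Between 280065 and 590593 miRNA reads were counted in pregnant endometrium, 61836 and 371630 in cyclic endometrium, 79173 and 152860 in pregnant UF, 62087 and 226308 in cyclic UF, 28204 and 44768 in the embryos and 4352 and 14531 in YS fluid. A floor of 3 reads amounted to between 5.08 and 10.7 CPM (reads per library total, scaled up to a common size) in pregnant endometrium, and to as much as 106 CPM in an embryo and 689 CPM in a YS fluid. Floors and intervals of counts are those of counting error alone and take no account of PCR copies. YS fluid of mare 4 was the smallest library, with 4352 reads. Cyclic UF of mare 3 had the lowest share of member reads in the adult samples, 1.79% against a mean of 3.88% ± 1.40 (SD, n = 4) for cyclic UF. Among miRNAs that mark cell types, the 8 early embryo markers (the miR-302 family, miR-367, miR-372 and both arms of miR-371) summed to between 9175 and 40284 CPM in the embryos. Their sum was between 13935 and 94055 CPM in YS fluid and at most 55.0 CPM in the adult samples. Stroma and smooth muscle markers summed to between 29155 and 92092 CPM in the endometrium of both cycles and to at most 10798 CPM elsewhere. Epithelial markers, such as the miR-200 family, summed to between 86195 and 149628 CPM in the 4 adult groups and to between 17343 and 82338 CPM in the embryos and YS fluid.

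The 5 members took 3.69% ± 0.469 (SD, n = 5) of the reads in pregnant endometrium and 3.14% ± 0.507 (SD, n = 4) in cyclic endometrium. Their share was 4.74% ± 0.690 (SD, n = 5) in pregnant UF. In the embryos it was 0.617% ± 0.165 (SD, n = 5) and in YS fluid 0.591% ± 0.339 (SD, n = 5). Levels below are CPM after normalization of the 28 libraries by the trimmed mean of M-values (TMM), which scales each library so that most miRNAs stay level. Of the 5 members, miR-27b had the most reads in every group and miR-24 the second most. How efficiently each miRNA was captured into the libraries was not measured.

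The b form of miR-27 averaged 37789 ± 4877 CPM (SD, n = 5) in pregnant endometrium and 28297 ± 4159 CPM (SD, n = 4) in cyclic endometrium. Its level in UF was 33962 ± 4874 CPM (SD, n = 5) in pregnant and 31188.5 ± 12791 CPM (SD, n = 4) in cyclic mares. The embryos were at 2399 ± 1093 CPM (SD, n = 5) and YS fluid at 1298.5 ± 1227 CPM (SD, n = 5). In this order of levels the neighbouring groups overlapped in their ranges, except that each of the 18 adult libraries lay above each of the 10 libraries of embryo and YS fluid.

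miR-24, the product of both clusters, had nearly the same mean in the 4 adult groups on this scale. With size factors by relative log expression (RLE) it was higher in UF. Its means were then 14857.5 CPM in pregnant and 13320.7 CPM in cyclic UF, against 11324.9 CPM in pregnant and 10524.2 CPM in cyclic endometrium. Under TMM it stood at 17378 ± 3498 CPM (SD, n = 5) in pregnant endometrium, 16423 ± 1422 CPM (SD, n = 5) in pregnant UF, 15459 ± 3631 CPM (SD, n = 4) in cyclic endometrium and 14949.9 ± 2931 CPM (SD, n = 4) in cyclic UF. It was at 1028 ± 238 CPM (SD, n = 5) in the embryos and at 882 ± 865 CPM (SD, n = 5) in YS fluid, and the same gap divided adult from embryonic samples.

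The a form of miR-27 was even flatter in the adult groups under TMM, with means between 2409 and 2472 CPM and single libraries between 1649 and 3209 CPM. Under RLE the adult means lay between 1549.5 CPM in pregnant endometrium and 2212 CPM in cyclic UF. In the embryos it was almost without reads. The 5 embryos held 0, 0, 1, 1 and 2 reads of miR-27a, for a mean of 12.2 ± 11.3 CPM (SD, n = 5). The YS fluids of mares 1 to 5 held 1, 1, 2, 0 and 3 reads, for a mean of 38.0 ± 30.4 CPM (SD, n = 5). All of these counts were at or below the floor.

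The 2 forms of miR-23 were highest in pregnant UF. The mean of miR-23b there was 8260.3 ± 3204 CPM (SD, n = 5), against 3794 ± 2361 CPM (SD, n = 5) in pregnant endometrium, 3062 ± 1755 CPM (SD, n = 4) in cyclic UF and 2557 ± 1089 CPM (SD, n = 4) in cyclic endometrium. That of miR-23a was 4405 ± 2046 CPM (SD, n = 5) in pregnant UF, 2156 ± 1720.2 CPM (SD, n = 4) in cyclic UF, 1188 ± 597 CPM (SD, n = 5) in pregnant endometrium and 1006 ± 490 CPM (SD, n = 4) in cyclic endometrium. Each of these groups overlapped with the next in order. In the embryos miR-23b was at 163 ± 123 CPM and miR-23a at 30.2 ± 25.1 CPM (SD, n = 5 each). YS fluid had 283 ± 295 CPM of miR-23b and 110 ± 173 CPM of miR-23a (SD, n = 5 each). The ranges of adult and embryonic samples did not overlap on this scale, but in CPM without TMM YS fluid reached 689 CPM of miR-23a and 1239 CPM of miR-23b, in mares 4 and 5. These values lay above the lowest libraries of pregnant endometrium, cyclic endometrium and cyclic UF for both forms, the lowest of cyclic UF being 483 CPM of miR-23a and 596 CPM of miR-23b. For miR-23a the ranges of YS fluid and endometrium also overlapped under RLE.

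**Figure D1:**
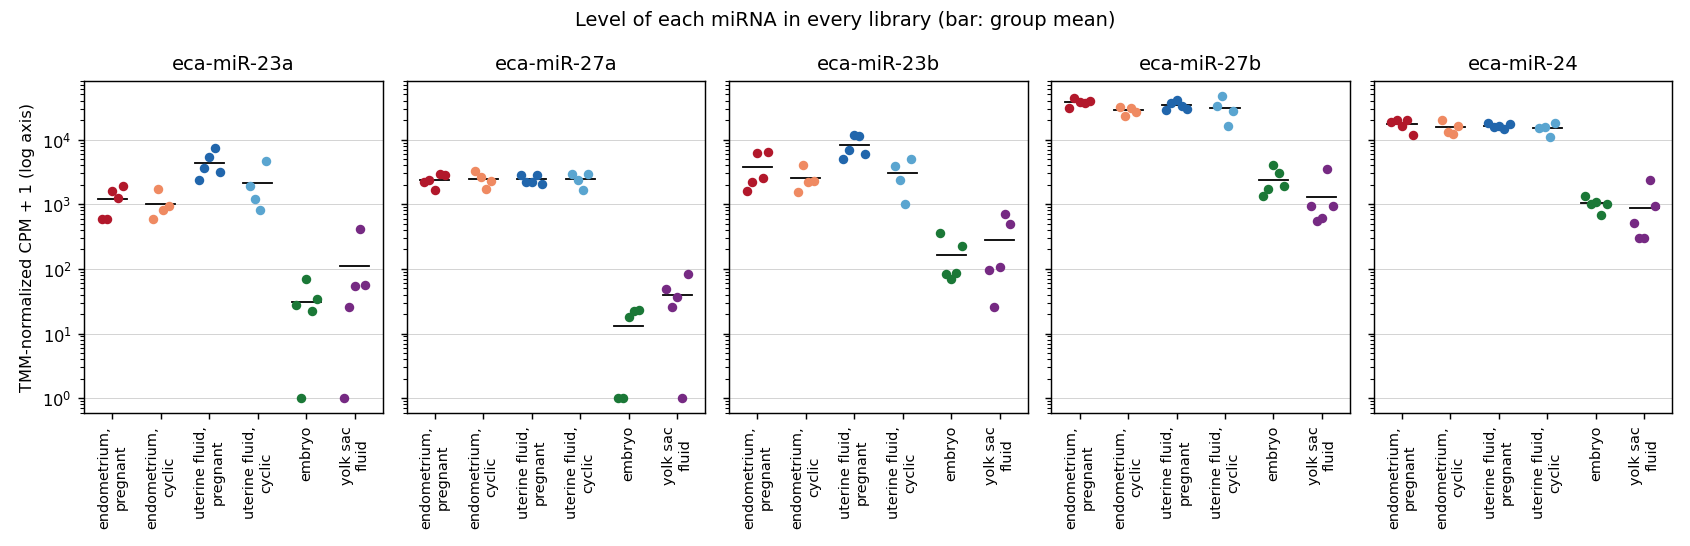
TMM-normalized CPM plus 1 (log axis) of the 5 miRNAs in each of the 28 libraries, by group, with a bar at the group mean. On this scale all 18 adult libraries lie above all 10 embryo and yolk sac fluid libraries for every miRNA (without TMM miR-23a and miR-23b of yolk sac fluid reach into the ranges of cyclic and pregnant endometrium and cyclic uterine fluid), and the points on the lowest line are libraries with 0 reads.

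Pregnant and cyclic UF were compared to follow each cluster mate through early pregnancy. The members were chosen by the values of this comparison, in which miR-23b differed, so what follows for it is a description with no test. In both forms of miR-23 the pregnant sample was the higher one in 4 of 4 mares, while miR-27a was higher in 1 of 4, and miR-27b and miR-24 in 2 of 4 each. Values of miR-23b in pregnant UF were 5035, 6849.5, 11854, 11539.9 and 6023 CPM in mares 1 to 5, and in cyclic UF 3833, 2348, 1017 and 5049.6 CPM in mares 1 to 4. The 2 groups just overlapped, as the highest cyclic value, of mare 4, was above the lowest pregnant value, of mare 1. Mare 3 had the largest difference, 3.54 on the log2 scale, and mare 1 the smallest, 0.39. The a form, miR-23a, stood at 2332, 3661, 5456, 7436 and 3138 CPM in pregnant UF of mares 1 to 5 and at 1941, 1218, 825 and 4642 CPM in cyclic UF of mares 1 to 4. Here the cyclic value of mare 4 exceeded the pregnant values of mares 1, 2 and 5.

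Fitted with the mare as a block, the log2 fold change of pregnant over cyclic UF was 1.72 (SE 0.39) for miR-23b and 1.39 (SE 0.40) for miR-23a. Their cluster mates were at 0.35 (SE 0.32) for miR-27b, 0.24 (SE 0.33) for miR-24 and 0.17 (SE 0.39) for miR-27a. Of the 5 members, 2 were thus at least 2-fold higher in pregnant UF, as were 12.5% of the 305 miRNAs measured there, a share from which nothing is read since this contrast chose the members. Mare 3 had both the lowest cyclic value of either form of miR-23 and the highest pregnant value of miR-23b. Its cyclic UF, a library of 62087 reads, was also the lowest of cyclic UF in miR-27b (16189 CPM), miR-24 (10884 CPM) and miR-27a (1649 CPM). Its pregnant value of miR-23b, 11854 CPM, was close to the 11539.9 CPM of mare 4. Which of its libraries set the size was not tested. Without mare 3 the log2 fold changes were 1.14 for miR-23b, 0.93 for miR-23a and -0.01 for miR-27b, and without the block they were 1.40 for miR-23b and 0.96 for miR-23a. Immune cell markers, which include miR-223 and miR-155, summed to between 2781 and 5166 CPM in pregnant and between 1982 and 4947 CPM in cyclic UF. Red blood cell markers summed to between 597 and 4336 CPM and between 1498 and 4377 CPM. By the FDR and fold change together, 4.92% of all miRNAs were called in UF and 3.37% in the endometrium. No early embryo entry had enough reads to be tested in either. Of the entries on the other lists of cell type markers, 0 were called in either. For lists this short 0 is close to these shares, so nothing is read from it. The part of these markers in the miR-23 levels was not tested.

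**Figure D2:**
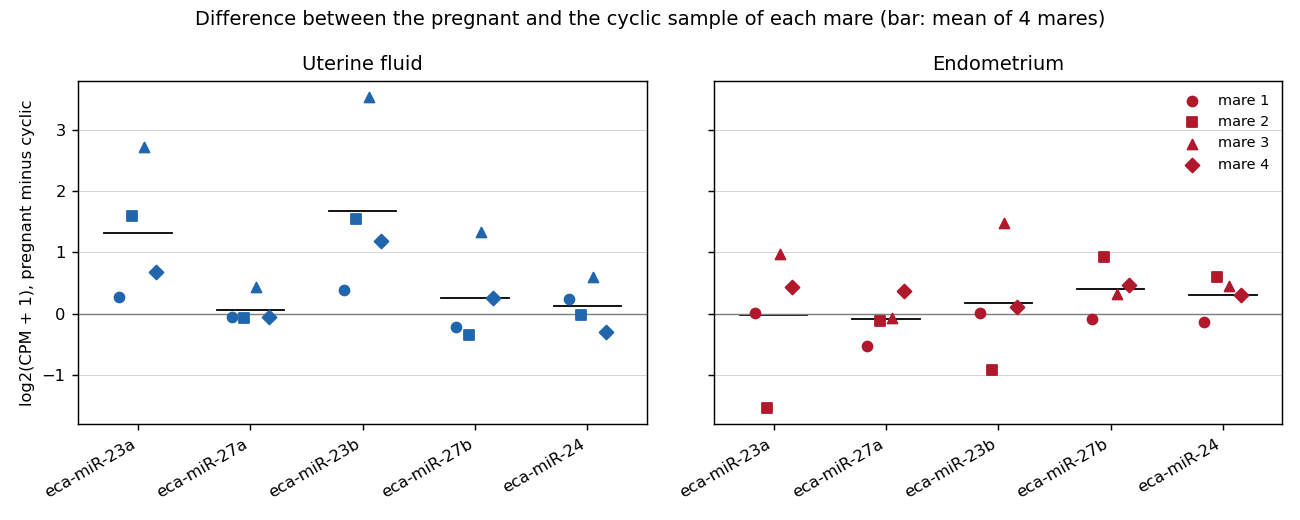
Difference of log2(CPM + 1) between the pregnant and the cyclic sample of the same mare, for the 5 miRNAs in uterine fluid (left) and endometrium (right), with a symbol for each of mares 1 to 4 and a bar at their mean. In uterine fluid the symbols of miR-23a and miR-23b all lie above 0, with mare 3 highest at 2.73 and 3.54, and in endometrium mare 2 lies below 0 for both.

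Between pregnant and cyclic endometrium, 0 of the 5 members passed the test (edgeR's quasi-likelihood test blocked by mare), where 3.37% of the 386 miRNAs tested did. Passing, or being called, required a fold change of 2 or more and a false discovery rate (FDR, Benjamini-Hochberg) no higher than 0.05. An unadjusted p below 0.05 was found for 65 of these miRNAs, 2 of them members. Across all alternative settings, including DESeq2 and the likelihood ratio test, 0 members were called. For miR-27b the log2 fold change of pregnant over cyclic was 0.52 (SE 0.19, FDR 0.109 by edgeR), with 3 of 4 mares higher when pregnant. For miR-24 it was 0.42 (SE 0.21, FDR 0.244 by edgeR) and 3 of 4 mares were higher. The remaining members were at 0.28 (SE 0.27) for miR-23b, 0.11 (SE 0.32) for miR-23a and 0.03 (SE 0.27) for miR-27a, with no call for any of them.

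Endometrial miR-23b was at 1585, 2180.3, 6170.2, 2502 and 6533 CPM in pregnant mares 1 to 5 and at 1566, 4110.2, 2224 and 2326 CPM in cyclic mares 1 to 4. Thus mares 3 and 5 were high in pregnancy and mare 2 was high in the cyclic cycle, and the groups overlapped over most of their range. In mare 2 both forms of miR-23 were lower in the pregnant sample, by log2 differences of -0.91 for miR-23b and -1.54 for miR-23a. In mare 3 both were higher, by 1.47 and 0.98. The 2 forms of miR-23 had the same sign in each mare, in endometrium as in UF. In endometrium of mare 1, though, both were near 0, at 0.02 each. The division of reads between the forms is uncertain, so nothing is read from this likeness. Mare 3 decided the sign of miR-23b, which was 0.28 with it and -0.36 without it.

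UF and endometrium of the same state were compared to set the level in the fluid beside that of the tissue it bathes. The pregnant UF libraries were part of the comparison that chose the members, so the values of pregnant mares are a description with no test. Here 2 of 5 members, both forms of miR-23, were past the thresholds and higher in UF, as were 13.6% of the 359 miRNAs measured (20.1% were lower), and nothing is read from this count. The log2 fold change of UF over endometrium was 2.03 for miR-23a (SE 0.40) and 1.27 for miR-23b (SE 0.41). Values of miR-23a in the endometrium of pregnant mares 1 to 5 were 588, 586, 1578, 1262 and 1927 CPM, all below the lowest UF value of 2332 CPM. For miR-23b the ranges overlapped, since endometrium of mares 3 and 5 lay above the lowest UF value. The mates stood at 0.20 (SE 0.25) for miR-27a, 0.11 (SE 0.22) for miR-24 and 0.04 (SE 0.22) for miR-27b. The median of all miRNAs tested was -0.12. Leaving out a mare gave between 1.82 and 2.39 for miR-23a and between 1.06 and 1.67 for miR-23b, which was past the thresholds with all mares but not without mare 2, 3 or 4.

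In cyclic mares 0 of 5 members were called between UF and endometrium, where 30.8% of the 328 miRNAs tested were (11.9% higher and 18.9% lower). The cyclic UF libraries were also part of the comparison that chose the members. Nothing is therefore read from this count or from the tests of miR-23 given here. An unadjusted p below 0.05 was found for 125 miRNAs and 0 members. By DESeq2 0 members were called as well. The log2 fold change of miR-23a was 1.13 (SE 0.60, FDR 0.172 by edgeR). Leaving out a mare gave between 0.30 (without mare 4, FDR 0.813) and 1.93 (without mare 2, FDR 0.0330), and of these fits only the one without mare 2 called it. The other 4 members were between 0.03 and 0.29. Whether the fluid-to-tissue difference of miR-23 differed between pregnant and cyclic mares was not tested, because the same UF libraries chose the members. Markers of blood vessels and stroma were lower in UF in both states. Of 2 endothelial entries (both arms of miR-126) 2 were lower in each state, of 8 stroma and smooth muscle entries tested 7 were lower in pregnant and 8 in cyclic UF, and of red blood cell entries 3 of 4 and 3 of 3 were lower. Epithelial markers had 1 of 6 higher in pregnant and 2 of 6 in cyclic UF. Of 6 immune entries 1 was lower in pregnant UF and 0 differed in cyclic UF. The part of this cell makeup in the levels of the members was not tested.

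The embryo was compared with the endometrium of the same pregnancies. All 5 members were lower in the embryo, where 42.6% of the 359 miRNAs tested were called lower and 28.7% higher. The median log2 fold change of all miRNAs was -1.02 and those of the members were -7.26 for miR-27a (SE 0.68), -5.07 for miR-23a (SE 0.74), -4.38 for miR-23b (SE 0.61), -3.89 for miR-24 (SE 0.28) and -3.78 for miR-27b (SE 0.34). The FDR of edgeR's quasi-likelihood test was between 3.03e-07 and 8.78e-05 for the 5 members. All were called under each alternative that kept the a and b forms apart, and with the forms summed both sums and miR-24 were. In bulk samples such as these, fewer cells of a type and less RNA per cell cannot be told apart.

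The size of these differences depended on the scaling, the direction did not. Under RLE the median of all miRNAs rose by 0.47 and miR-27a stood at -6.83, which was -6.27 relative to that median, against -6.23 under TMM. In reads pooled over the 5 libraries of each group and scaled by library totals alone, miR-27a was 59.9-fold higher in endometrium, with an exact 95% interval of 23.4 to 220.1 from only 4 reads in the embryos. The fold was 13.9 for miR-23a (interval 7.28 to 30.4, from 9 reads), 8.59 for miR-23b (6.47 to 11.7), 5.60 for miR-24 (5.02 to 6.28) and 5.30 for miR-27b (4.92 to 5.70). Immune cell entries were lower in the embryo in 6 of 6 cases, endothelial in 2 of 2, red blood cell in 4 of 4 and stroma and smooth muscle in 7 of 8. Epithelial entries were lower in 3 of 6 and higher in 1 of 6, and early embryo entries were higher in 7 of 7. Immune, endothelial, red blood cell and most stroma and smooth muscle entries were thus lower like the members. Early embryo entries went the other way and epithelial ones both ways. The part of these markers in the result was not tested.

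Against pregnant UF, the fluid around it, 5 of 5 members were lower in the embryo as well, as were 38.7% of 310 miRNAs (29.7% were higher). For miR-23 these UF libraries had helped to choose the members. Log2 fold changes were between -4.16 for miR-27b (SE 0.41) and -7.70 for miR-27a (SE 0.74), with miR-23a at -7.42 (SE 0.73) and miR-23b at -6.01 (SE 0.55). Pooled and scaled by library totals, the level of miR-23a in UF was 60.8 times that in the embryo (exact 95% interval 31.9 to 133.1). Immune entries were lower in the embryo in 6 of 6 cases and red blood cell entries in 3 of 3, early embryo entries were higher in 7 of 7, and endothelial entries did not pass. Of stroma and smooth muscle 4 of 5 were lower and 1 higher, and of epithelium 4 of 6 were lower. Under RLE, where the median of all miRNAs rose by 0.60, calls in either direction changed from 92 higher and 120 lower to 116 higher and 100 lower. All 5 members were called lower under both scalings.

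**Figure D3:**
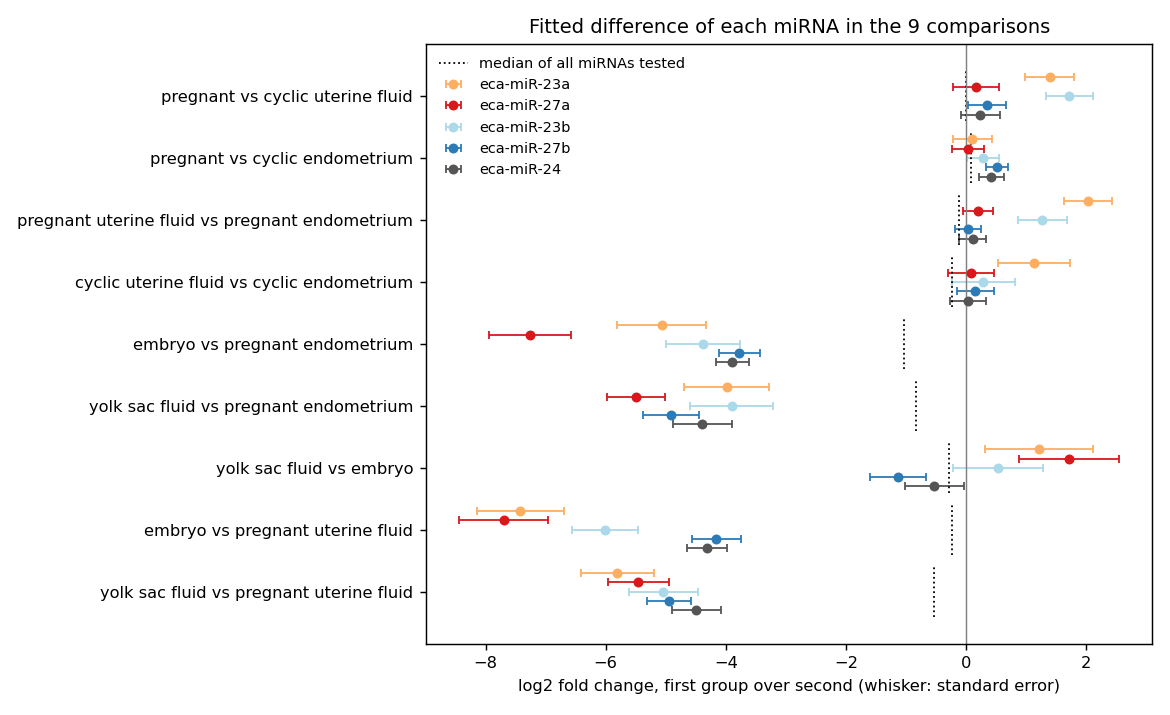
Fitted log2 fold change, first group over second, of the 5 miRNAs in the 9 comparisons, with a whisker of 1 standard error and a dotted line at the median of all miRNAs tested in that comparison. The points of embryo and yolk sac fluid against the adult samples all lie at -3.78 or further left, those of the 2 forms of miR-23 lie right of the other members in uterine fluid, and the comparisons share libraries.

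YS fluid, aspirated from the embryo's yolk sac, was set beside the same adult samples. Again 5 of 5 members were lower than in pregnant endometrium, where 35.2% of 341 miRNAs were (17.9% were higher), with log2 fold changes of -5.50 for miR-27a (SE 0.48), -4.91 for miR-27b (SE 0.47), -4.39 for miR-24 (SE 0.49), -3.98 for miR-23a (SE 0.71) and -3.90 for miR-23b (SE 0.69). The median of all miRNAs was -0.84 and FDR values of edgeR's quasi-likelihood test were between 2.59e-07 and 0.000186. Under RLE the median rose by 0.82, the 61 higher and 120 lower calls became 78 and 87, and all 5 members stayed called. Pooled and scaled by library totals, endometrium was higher by 10.3-fold in miR-27a (exact 95% interval 4.99 to 25.6, from 7 reads in YS fluid), 8.72-fold in miR-27b, 5.93-fold in miR-24, 4.17-fold in miR-23a and 3.88-fold in miR-23b. Immune entries were lower in 6 of 6 cases, red blood cell in 4 of 4, stroma and smooth muscle in 7 of 8, endothelial in 2 of 2 and epithelial in 3 of 6, and early embryo entries were higher in 7 of 7.

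Against pregnant UF, with the same limit for miR-23, YS fluid was lower in 5 of 5 members, where 35.7% of 277 miRNAs were (23.5% were higher), with log2 fold changes between -4.49 for miR-24 (SE 0.40) and -5.81 for miR-23a (SE 0.61). Both are fluids extracted with the same kit, so the kit did not divide these groups. Under RLE the median rose by 0.68 and calls went from 65 higher and 99 lower to 87 and 78, with the 5 members still lower. Immune entries were lower in 6 of 6 cases, red blood cell in 2 of 3, stroma and smooth muscle in 3 of 3 and epithelial in 4 of 6, early embryo entries were higher in 7 of 7, and 0 of 2 endothelial entries were called. The 4 comparisons of embryo and YS fluid with adult samples share libraries and are not independent of each other.

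Between YS fluid and embryo 0 of 5 members were called, where 35.1% of 259 miRNAs were (13.1% higher and 22.0% lower). An unadjusted p below 0.05 was found for 2 of the 5 members. This share was no higher than that among all miRNAs tested here, so nothing is read from it. The 2 members lay in opposite directions. The b form miR-27b was at -1.13 (SE 0.46, FDR 0.0711 by edgeR) and the a form miR-27a at 1.72 (SE 0.83, FDR 0.0826). The value of miR-27a rests on only 4 reads in the embryos and 7 in YS fluid, with each library at or below the floor. Without mare 1, miR-27b was called at -1.31 (FDR 0.0460). DESeq2 called 0 members. miR-23a at 1.22 (SE 0.90), miR-23b at 0.54 (SE 0.75) and miR-24 at -0.52 (SE 0.49) did not pass. Of the cell type markers only epithelial entries were called here, 3 of 6 lower in YS fluid.

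Ratios of members within a library do not depend on the scaling between libraries, and 20 of them were tested as a family. Each ratio is given as log2 of reads with 0.5 added to each count. The ratio of miR-27b to miR-27a was 3.99 ± 0.365 (SD, n = 5) in pregnant endometrium, 3.54 ± 0.425 (SD, n = 4) in cyclic endometrium, 3.80 ± 0.347 (SD, n = 5) in pregnant UF and 3.59 ± 0.492 (SD, n = 4) in cyclic UF. In the embryos it was 6.95 ± 0.805 (SD, n = 5), and in YS fluid 4.09 ± 0.916 (SD, n = 5). The 5 embryo values, of 6.63, 8.18, 7.28, 6.56 and 6.11 in mares 1 to 5, were all above the highest value of pregnant endometrium, 4.52. The difference of 2.96 had an exact permutation p of 0.00794, the smallest that 252 arrangements can give, and 0.0529 after Benjamini-Hochberg adjustment over the 20 ratios. Between YS fluid and embryo the difference was -2.86 with the same exact permutation p and adjusted p. Neither difference passed 0.05 after adjustment. The YS fluids held only 20 to 34 reads of miR-27b. Even without a read of miR-27a, their ratio could then not exceed the lowest embryo value. Depth fixed this separation in advance, so nothing is read from the test of YS fluid against embryo.

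As a share of both forms, miR-27a made up 0.538% of miR-27 reads in the embryos (4 of 743, exact 95% interval 0.147 to 1.37) and 4.93% in YS fluid (7 reads beside 135 of miR-27b, interval 2.00 to 9.89). It made up 5.77% in pregnant endometrium, 7.79% in cyclic endometrium, 6.55% in pregnant UF and 7.13% in cyclic UF. The corresponding share of miR-23a among miR-23 reads was 15.8% in the embryos (9 of 57, exact 95% interval 7.48 to 27.9) and 23.2% in pregnant endometrium, so these intervals did not separate. The log2 ratio of miR-23b to miR-23a was 2.24 ± 1.52 in the embryos and 1.61 ± 0.404 in pregnant endometrium (SD, n = 5 each, exact permutation p 0.397, adjusted p 0.611). Because the a and b forms are so alike in sequence, the shares rest on how reads were divided between them.

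Ratios over miR-23 in pregnant UF are given as a description, since the miR-23 values of these libraries chose the members. The log2 ratio of both miR-27 to both miR-23 was 1.61 ± 0.482 in pregnant UF against 3.21 ± 0.832 in pregnant endometrium (SD, n = 5 each). Pregnant UF values of mares 1 to 5 were 2.11, 1.90, 1.31, 0.92 and 1.81, all below the lowest endometrial value of 2.31. That of miR-24 to both miR-23 was 0.47 ± 0.694 in pregnant UF and 1.98 ± 1.15 in pregnant endometrium (SD, n = 5 each), with overlap. In cyclic UF the ratio of both miR-27 to both miR-23 was 2.85 ± 0.909 and in cyclic endometrium 3.19 ± 0.791 (SD, n = 4 each, exact permutation p 0.571, adjusted p 0.672). The miR-23 values of cyclic UF also chose the members, so nothing is read from this test. Within a mare, both ratios over miR-23 were lower in the pregnant than in the cyclic UF in 4 of 4 mares, with mean log2 differences of -1.29 for miR-27 and -1.40 for miR-24, which were not tested.

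The log2 ratio of miR-23b to miR-23a was 0.94 ± 0.197 in pregnant UF and 1.61 ± 0.404 in pregnant endometrium (SD, n = 5 each), again as a description. In cyclic mares it was 0.59 ± 0.441 in UF and 1.37 ± 0.0914 in endometrium (SD, n = 4 each), without overlap, at an exact permutation p of 0.0286, the smallest that 70 arrangements can give, and an adjusted p of 0.114. Between pregnant and cyclic endometrium none of the 4 ratios could pass, since 4 mares allow an exact p no lower than 0.125. Of the 20 ratios 0 passed after adjustment and 5 had an unadjusted exact permutation p below 0.05. Of these 5, 2 were in pregnant UF, and that of miR-23b to miR-23a in cyclic mares was in cyclic UF. The miR-23 values of both fluids chose the members, so nothing is read from these ratios. That of YS fluid against embryo was fixed by depth, as given above. The adjustment over 20 ratios also counted those in pregnant and cyclic UF, so the adjusted values depend on them. All 5 were unpaired, although samples of the same number come from the same mare. Paired by mare, an exact sign-flip over 5 mares cannot go below 0.0625 and over 4 mares 0.125, so none could pass 0.05, and the adjusted p of miR-27b over miR-27a rose from 0.0529 to 0.313 in embryo against endometrium and in YS fluid against embryo.

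**Figure D4:**
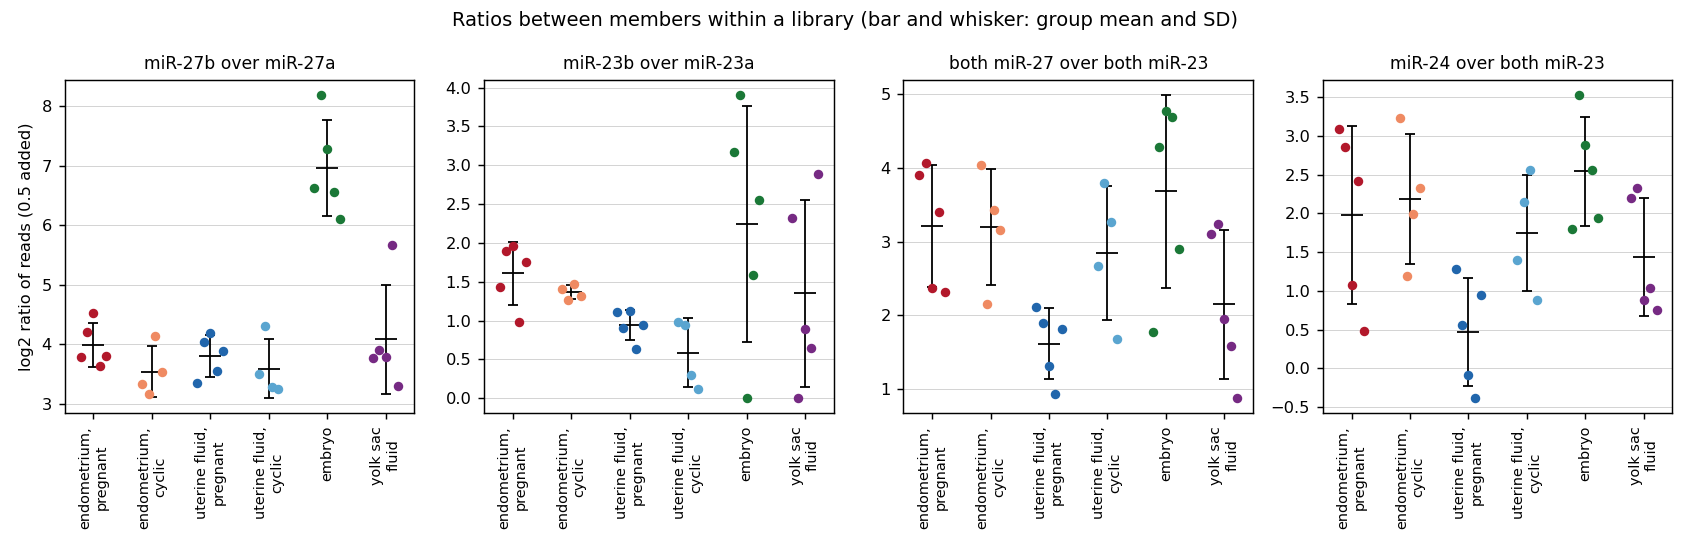
Log2 ratio of reads between members within each library (0.5 added to each count), by group, with a bar at the group mean and a whisker of 1 SD, each panel on its own axis. The 5 embryos lie above all other libraries for miR-27b over miR-27a, between 6.11 and 8.18 (the depth of yolk sac fluid allowed it nothing above the lowest embryo). Pregnant uterine fluid has the lowest group mean for both miR-27 over both miR-23, 1.61, with its libraries between 0.92 and 2.11 overlapping those of yolk sac fluid, embryo and cyclic uterine fluid.

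The known miRNAs most like each member in profile were found by the root mean square (RMS) difference of log2(CPM + 1) from the miRNA's own mean over the 28 libraries, among miRNAs with a mean of at least 100 CPM. These profiles share library, depth and the large gap between adult and embryonic samples. For miR-27b they were miR-31 (RMS 0.68), miR-141 (0.83) and miR-98 (0.97), while miR-24 was at 0.48. For miR-24 they were miR-31 (0.70), miR-155 (0.94) and miR-98 (0.96). For miR-23b they were miR-31 (1.13), miR-98 (1.20) and let-7f (1.20), with miR-24 at 1.01. The nearest of miR-23a were miR-29a (1.47), miR-98 (1.49) and let-7a (1.61), and those of miR-27a were miR-150 (1.49), miR-181b (1.62) and miR-211 (1.75). The 2 most abundant members, miR-27b and miR-24, were thus closer to each other than to any other miRNA compared. By contrast miR-27a was between 2.36 and 2.48 from every other member, and at 2.40 from its cluster mate miR-23a. The RMS of miR-23a was 1.58 to miR-23b and 1.93 to miR-24. Both a forms were at or near the floor in embryos and YS fluid.

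Other miRNAs linked to blood vessel growth were taken as a list of 14 entries, of which 13 passed the filter on low counts in all comparisons but that of YS fluid with embryo, where 12 did. In pregnant against cyclic samples 0 of 13 were called in UF, with a median log2 fold change of -0.22 beside 0.0032 for all miRNAs, and 0 of 13 in endometrium, with 0.08 beside 0.08. In pregnant UF against endometrium 1 was higher, miR-222 at 1.75 (SE 0.35, FDR 0.00122 by edgeR), and 3 were lower, among them the endothelial miR-126-3p at -4.64 (SE 0.55, FDR 4.14e-05) and miR-130a at -1.19 (SE 0.30, FDR 0.00593). In cyclic mares 3 were higher and 2 lower in UF.

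Embryo and YS fluid showed both directions on this list. In the embryo against endometrium 6 were higher and 5 lower, and in YS fluid against endometrium 6 were higher and 5 lower. The higher ones were led by members of the miR-17/92 cluster, which is known to promote cell proliferation. Thus miR-18a was at 5.86 (SE 0.59, FDR 4.69e-06 by edgeR) and miR-17 at 3.61 (SE 0.32, FDR 2.17e-06) in the embryo, where miR-221 was at -5.88 (SE 0.47, FDR 7.93e-07). Medians were 0.62 in the embryo beside -1.02 for all miRNAs, and -0.09 in YS fluid beside -0.84. The 5 members were lower in both comparisons, as given above. Against pregnant UF, 6 entries were higher and 3 lower in the embryo, and 6 higher and 2 lower in YS fluid. Between YS fluid and embryo 3 were higher and 2 lower.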

How the data were processed

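Small RNA libraries of 28 samples in 6 groups were analysed. The authors trimmed adapters (cutadapt 1.11 per the labels), removed short and low-quality reads and, with miRPro, counted reads on horse miRNAs of miRBase and on miRNAs predicted on EquCab2.0, and they deposited raw read counts without normalization. The table of precursors of predicted miRNAs was not used here.

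The tables of known and of predicted miRNAs were joined, and 0 columns were left unmapped. For each comparison, edgeR 4.0.16 (R 4.3.3) was run on the libraries concerned: at least 1 CPM in as many libraries as the smaller group, TMM, the quasi-likelihood test and Benjamini-Hochberg adjustment over all miRNAs tested. As in the study's methods, calls needed a 2-fold change and an FDR no higher than 0.05. Pregnant and cyclic samples were blocked by mare, read from the replicate number, since the study describes each mare as her own control. Mare 5 then enters the normalization and group means but not the contrast. Deviations of same-mare samples from their group mean correlated by 0.213 in endometrium (between -0.04 and 0.551 over mares) and 0.415 in UF (between 0.160 and 0.624). Those of different mares correlated by -0.07 and -0.14. Taking deviations from the group mean forces these below 0 when the same-mare values are above it, so they are no baseline. Ratios were compared by two-sided exact permutation, or by sign-flip over mares, with Python 3.11.15 and scipy 1.17.1. Named miRNAs were the 5 members, the 3 known miRNAs most like each, and entries of the fixed lists. The members and lists were chosen with earlier results of these data known. The alternatives were RLE, DESeq2 1.42.0, the likelihood ratio test, no low-count filter, filterByExpr (minimum count 10), known miRNAs only, the block added or removed, libraries thinned to the smallest, a and b forms summed, other pseudocounts, and each replicate left out. The fits were tested on simulated data.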

Additional observations from a re-analysis of the deposited data

Results flagged for a closer look

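In 54 groups of values examined for a sample far from the others, 3 were found, where chance gives about 1 in 20 groups, and all 3 were YS fluid of mare 4, the library of 4352 reads. There miR-23a stood at 416.3 CPM, with the next highest YS fluid at 55.0 CPM, on 3 reads. The level of miR-27b was 3469 CPM there, with the next at 940 CPM, on 25 reads. The log2 ratio of miR-27b to miR-27a was 5.67 there, with the next at 3.91, and rests on 0 reads of miR-27a. Without mare 4 the difference of this ratio between YS fluid and embryo was -3.36, against -2.86 with it. The part of depth in these values was not tested.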

How the results depend on the processing

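Members lower in embryo or YS fluid than in adult samples stayed called, 5 of 5, under every alternative that kept the a and b forms apart. With the forms summed, both sums and miR-24 stayed called. The miR-23 values of pregnant UF chose the members, so nothing is read from this for miR-23 against UF. Counts of members called changed as follows. In UF, 1 member rather than 2 was at least 2-fold higher with no replicate block, and 1 to 2 when leaving out a replicate (1 without replicate 3). In pregnant UF against endometrium the count was 1 to 2 when leaving out a replicate, and it was 0 to 1 in cyclic UF against endometrium and in YS fluid against embryo. With the replicate block added between tissues and fluids, no count of members changed, and the paired fit called 54 rather than 91 miRNAs in YS fluid against embryo. Without the block, 0 rather than 13 miRNAs were called in endometrium and 0 rather than 15 in UF. In UF the count was also 7 with DESeq2, 0 with filterByExpr, 3 with known miRNAs only, 5 after thinning, and 3 to 26 when leaving out a replicate (26 without replicate 1, 7 without replicate 2, 3 without replicate 3 or 4).

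Small differences changed sign, none of them called. In pregnant against cyclic endometrium miR-27a was -0.037 with RLE, -0.035 with DESeq2, -0.017 without a low-count filter, -0.030 with known miRNAs only and -0.024 after thinning. Leaving out a replicate gave between -0.46 and 0.63 for miR-23a (below 0 without replicates 1, 3 and 4), between -0.36 and 0.67 for miR-23b, and between -0.18 and 0.072 for miR-27a. In pregnant UF against endometrium, without a low-count filter miR-24 was -0.028 and miR-27b -0.10. Leaving out a replicate gave between -0.041 and 0.24 for miR-24, -0.017 and 0.38 for miR-27a and -0.16 and 0.15 for miR-27b. In cyclic UF against endometrium the replicate block gave -0.0038 for miR-24. Leaving out a replicate there gave between -0.19 and 0.96 for miR-23b, -0.10 and 0.24 for miR-24 and -0.089 and 0.43 for miR-27a. There miR-23a kept its sign, between 0.30 and 1.93, and was called only without replicate 2. Apart from these small differences, miR-27 in YS fluid against embryo was -1.20 with a and b forms summed, the sign of miR-27b and opposite to miR-27a. The sum held 135 reads of miR-27b beside 7 of miR-27a in YS fluid, and 739 beside 4 in the embryos.

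Among the ratios, miR-24 over both miR-23 in pregnant against cyclic endometrium was -0.20 with no replicate block. Leaving out a replicate, this ratio lay between -0.32 and 0.54, and between -0.90 and 0.026 in cyclic UF against endometrium. That of both miR-27 over both miR-23 lay between -0.32 and 0.68 in pregnant against cyclic endometrium, -1.01 and 0.033 in cyclic UF against endometrium and -0.014 and 1.12 in embryo against endometrium. That of miR-27b over miR-27a in cyclic UF against endometrium lay between -0.32 and 0.35. The cause of these changes was not tested.

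Over all miRNAs, filterByExpr tested fewer and called 3 in pregnant against cyclic endometrium, 75 in pregnant UF and 140 in embryo against endometrium, 40 in YS fluid against embryo, and 101 and 90 in embryo and YS fluid against UF. Known miRNAs alone gave 2 in pregnant against cyclic endometrium. After thinning, 100, 35 and 91 were called in YS fluid against endometrium, embryo and UF. In YS fluid against embryo, leaving out replicate 2, 4 or 5 gave 46, 48 and 40. Group means changed with other scalings by more than their SD in 26 cases. In embryos and YS fluid depth limits miR-27a and miR-23a, most of whose libraries were at or below 3 reads.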
